A study of Rattus norvegicus with 14 samples.

Results

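Replication of DNA before division draws on a set of enzymes and loading factors that proliferating cells make together, and 31 such genes were followed here through rat intestinal cells exposed to anti-inflammatory drugs. The genes were taken as a list by symbol in the array's probe annotation, with 1 probe set per gene, the one with the highest mean log2 signal over the 14 arrays. All 31 were on the array, out of 9839 named genes tested, and all 31 had a signal of at least 100 on all 14 arrays, so the filter on low signals removed none of them. More than 1 probe set was present for 6 of the genes.

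The cells were IEC-6, an untransformed epithelial line from rat intestine that the labels describe as crypt cells. Cultures were kept for 72 h with DMSO, the solvent, as vehicle control (4 arrays), with 100 µM NS-398, an inhibitor that prefers cyclooxygenase-2 (4 arrays), with 1 µM SC-560, an inhibitor that prefers cyclooxygenase-1 (4 arrays), or with 100 µM indomethacin, which inhibits both enzymes (2 arrays). The control and all drug cultures thus shared the line, the solvent and the exposure time, while the dose of SC-560 differed from that of the other drugs. The array titles carried a digit, 1 or 2, with or without a suffix b, and this divides them into label sets of 6 (without the suffix) and 8 (set b). What the suffix stands for is not given in the sources used here. DMSO, NS-398 and SC-560 each had 2 arrays in each set, and both indomethacin arrays were in set b. Cultures were pooled and several chips were run per biological sample, per the series' design text, so the p-values speak only to variation from array to array, some of which may be technical.

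A eukaryotic origin is prepared for replication when the origin recognition complex and Cdt1 load a ring of Mcm proteins, the replicative helicase, onto DNA. Cyclin E with its kinase, Cdc45 and the GINS complex then switch the helicase on, primase with DNA polymerase alpha starts each strand, and the sliding clamp Pcna, set on DNA by the Rfc clamp loader, holds the copying polymerases in place. Many of these genes are known targets of the E2F transcription factors, which are released from the retinoblastoma protein as cells pass from G1 into S phase. In the gut epithelium such genes are known to be most active in the dividing cells of the crypts.

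Array medians ran from 97.8 to 118 signal units, and 49.7% to 52.4% of the probe sets on an array had 100 or more. The ratio of the 3' to the 5' control probe set of beta-actin, a sign of how complete the amplified RNA was, ran from 1.498 to 1.64 on the arrays without the suffix and from 1.22 to 1.34 in set b, without overlap. The same ratio for Gapdh ran from 0.902 to 0.990 and from 0.955 to 1.00. Of 8 markers of intestinal epithelium, Krt8 and Cdh1 had at least 2637 on all 14 arrays, whereas Krt18, Epcam and Cldn7 stayed under 100 on all 14, and Cdx2, an intestinal transcription factor, ran from 55.0 to 5314. Of 8 markers of fibroblasts and smooth muscle, 7 had at least 100 on all 14 arrays, against 2 of the 8 epithelial ones. Vim had 21670.3 or more, Col3a1 16746 or more, Col1a1 10473 or more and Col1a2 6781 or more on every array. Tagln ran from 203 to 1866, Acta2 from 333 to 654 and Des from 104 to 267, whereas Thy1 stayed under 100 on all 14 (18.4 to 81.1). The summed level of the epithelial markers was 10779 to 11679 without the suffix and 12762 to 15854 in set b, and that of the fibroblast and smooth muscle markers was 59653 to 72768 and 89194 to 104247. Within the arrays without the suffix the latter sum was 68523 to 70036 with DMSO, 70881 to 72768 with SC-560 and 59653 to 62609 with NS-398; within set b it was 89679 to 92318, 101528 to 104247, 89754 to 93142 with indomethacin and 89194 to 94151 with NS-398. Of 3 crypt stem cell markers 2 were measured, Lgr5 and Ascl2, with a sum of 302 to 321 with DMSO and 364 to 433 with NS-398 without the suffix, and of 144 to 245 and 148 to 163 in set b. Of 4 immune and endothelial markers, 3 were measured, and none reached 100 on all arrays. The 3' to 5' ratio of beta-actin and the marker sums moved with the label set, as the replication genes did, and their part in the results was not tested. In bulk RNA, fewer cells of a type and less RNA per cell cannot be told apart.

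Over both label sets, NS-398 changed 3 of the 31 replication genes. The signal of Ccne1, the cyclin E1 gene whose product drives the G1 to S step, rose by 0.41 ± 0.093 on the log2 scale (SE), that of Cdt1, the licensing factor, by 0.32 ± 0.090, and that of Pcna, the sliding clamp, by 0.15 ± 0.040. These 3 of 31 genes were called higher in the limma fit of group and label set, with an adjusted p = 0.00812 for Ccne1, an adjusted p = 0.0246 for Cdt1 and an adjusted p = 0.0215 for Pcna, and none was called lower. A gene is said to be called, or to rise or fall, where its adjusted p was under 0.05. Among all 17515 probe sets tested, 13.5% were called and 7.12% were called higher, so the share of 3 in 31 was near that background. The median change over the 31 genes was 0.032, against -0.0076 over all probe sets, and 21 of 31 lay above 0. The count fell to 1 without the array DMSO 2 or without NS-398 1.

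The label sets gave different pictures. On the arrays without the suffix, NS-398 raised 12 of 31 genes and lowered none, with a median of 0.23 and 28 of 31 above 0. The genes called were Mcm3, Mcm4, Mcm5, Mcm7 and Mcm10, the loading factor Cdt1, the primase subunit Prim1, the polymerase delta subunit Pold1, Pcna, the clamp loader subunit Rfc4, thymidylate synthase (Tyms) and Ccne1. In this comparison 11.9% of all probe sets were called and 6.13% were called higher. In set b, NS-398 lowered 7 of 31 genes and raised none, with a median of -0.16 and 24 of 31 below 0, where 14.7% of all probe sets were called and 6.99% were called lower. The genes called lower were Mcm4, Mcm7, Prim1, Rrm1, thymidine kinase 1 (Tk1), Ccne2 and Uhrf1. Over all probe sets, 49.3% lay above 0 without the suffix and 51.6% below 0 in set b, with medians of -0.0039 and -0.0090. The signs were above 0 without the suffix and below 0 in set b for 21 genes, above 0 in both sets for 7 and below 0 in both for 3. Mcm4, Mcm7 and Prim1 were called in both sets, higher without the suffix and lower with it, but none of the 3 kept both calls in a fit without the intensity trend in limma or with SC-560 as the reference. Without the trend, Mcm7 and Prim1 lost both calls and Mcm4 the one without the suffix. With SC-560 as the reference, all 3 lost the call in set b and Mcm4 also the one without the suffix. Leaving out the array DMSO 2 brought the count without the suffix to 2, leaving out NS-398 1 or NS-398 2 brought it to 5 or 3, and leaving out DMSO 1b, DMSO 2b or NS-398 2b brought that of set b to 2, 4 or 4.

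**Figure D1:**
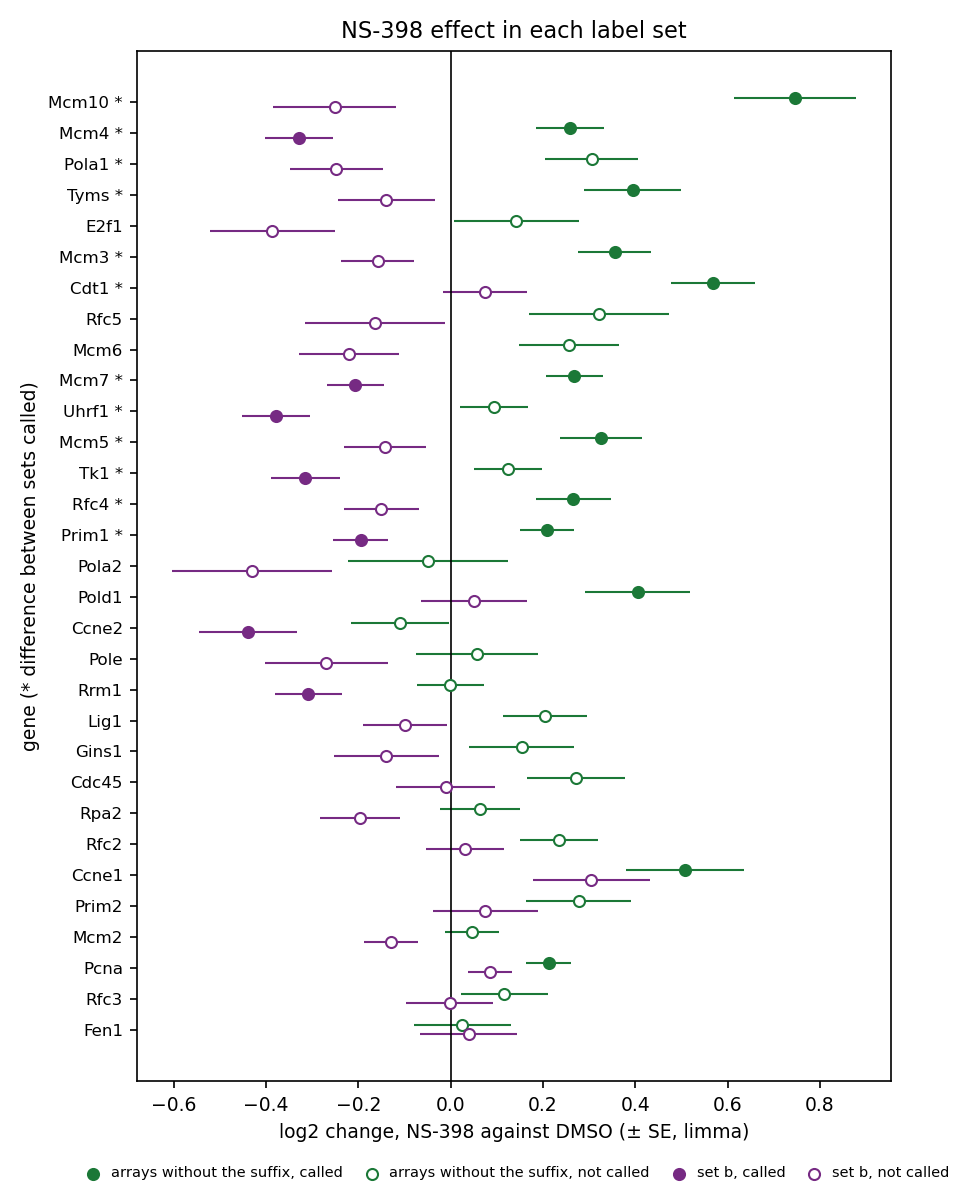
Log2 change with NS-398 against DMSO (x axis, points with SE from limma) for each of the 31 genes (y axis) on the arrays without the suffix (green) and in set b (purple), 2 arrays per group and set; filled points were called at an adjusted p under 0.05 and an asterisk marks a called difference between the sets. Genes are ordered by that difference, and for 30 of 31 the purple point lies to the left of the green one.

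The difference between the effects was tested itself, as the NS-398 change in set b minus that without the suffix. It was negative for 30 of 31 genes, with a median of -0.38 against -0.0048 over all probe sets, and 12 of 31 were called lower, where 6.09% of all probe sets were called and 2.86% were called lower. The 12 were Mcm3, Mcm4, Mcm5, Mcm7, Mcm10, Cdt1, Pola1, Prim1, Rfc4, Tyms, Tk1 and Uhrf1. Fen1, the flap nuclease that trims Okazaki fragments, was the gene above 0, at 0.014 ± 0.15. The calls of Mcm4, Mcm7, Mcm10 and Prim1 held in all 14 fits that each left out 1 array. Leaving out an SC-560 or indomethacin array touches this difference only through the estimate of the spread, which all arrays share. For Cdt1, Mcm5 and Pola1, every fit that lost the call for the difference left out a DMSO or NS-398 array. Without DMSO 2, DMSO 1b, NS-398 2 or NS-398 1b the count was 4, 5, 5 or 7, and it was 4 without the intensity trend in limma and 7 without the filter on low signals.

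The set difference of the vehicle arrays entered this result, since the same DMSO arrays served as reference. On the DMSO arrays 20 of 31 genes were higher in set b than without the suffix and 1, Fen1, was lower (-0.59 ± 0.11 (adjusted p = 0.000246)), with a median difference of 0.46; 41.9% of all probe sets were called here and 21.8% were called higher. Rfc2, a clamp loader subunit, had 0.85 ± 0.085, Tk1 0.84 ± 0.074 and Mcm10 0.74 ± 0.13. On the SC-560 arrays 14 were higher and 3 lower, with a median of 0.27 (44.8% of all probe sets called, 23.8% higher). On the NS-398 arrays 3 were higher and 8 lower, with a median of -0.041 (42.7% called). The mean log2 value of the 31 genes was 10.14 and 10.06 on the DMSO arrays without the suffix, 10.47 and 10.41 on those of set b, 10.32 and 10.33 with NS-398 without the suffix, and 10.27 and 10.30 with NS-398 in set b. The NS-398 arrays of both sets thus lay between the DMSO arrays without the suffix and those of set b.

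**Figure D2:**
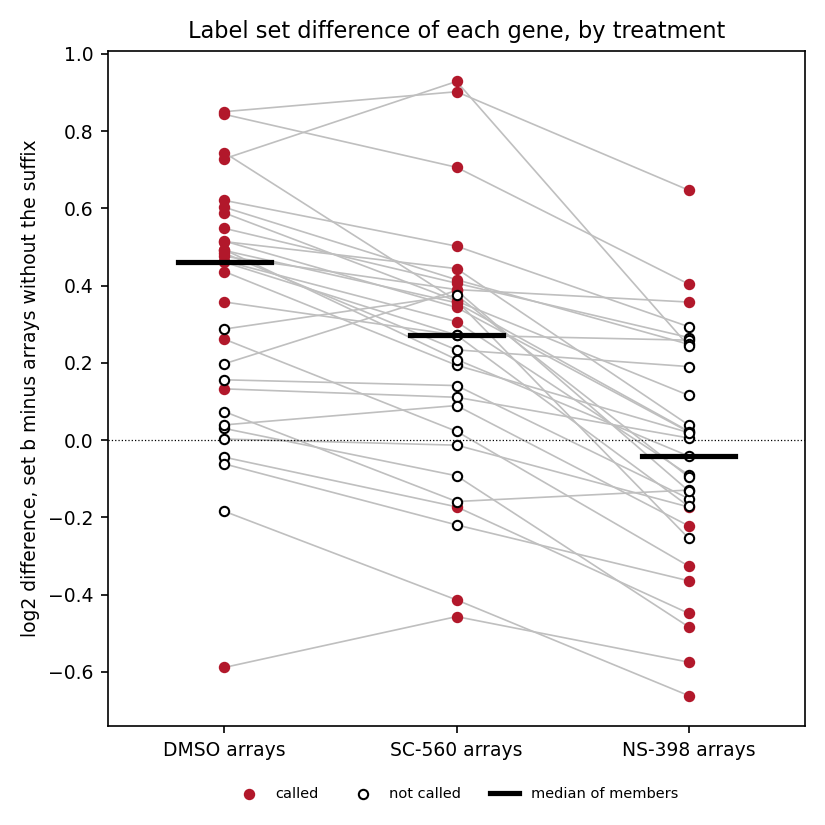
Log2 difference between set b and the arrays without the suffix (y axis) for each of the 31 genes on the DMSO, SC-560 and NS-398 arrays (x axis), 2 arrays per group and set; grey lines join a gene, filled points were called by limma at an adjusted p under 0.05, and bars mark the medians. The medians are 0.46, 0.27 and -0.041.

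With the SC-560 arrays as the reference in place of DMSO, the same NS-398 arrays showed 8 of 31 genes higher and none lower without the suffix (median 0.19; 11.4% of all probe sets called, 5.73% higher). In set b they showed Ccne1 higher and Tk1 and Ccne2 lower (median -0.10; 13.1% called). The difference between the sets was negative for 30 of 31 genes with a median of -0.25, but 1 gene, Mcm7, was called (-0.40 ± 0.086 (adjusted p = 0.0128); 5.46% of all probe sets called). With DMSO and SC-560 arrays together as the reference, 11 of 31 were called, all of them negative, 10 of which were among the 12 called against DMSO (9.12% of all probe sets called). The size of the set difference of NS-398 therefore depended on the reference arrays, and these comparisons were added after the data were seen. Against DMSO, the difference between the sets for SC-560 itself had a median of -0.14, with 25 of 31 genes below 0 against 49.4% of all probe sets. No gene was called, where 3 of 17515 probe sets were. An unadjusted p under 0.05 (limma) was found for 2 of 31 genes and for 1071 of 17515 probe sets.

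**Figure D3:**
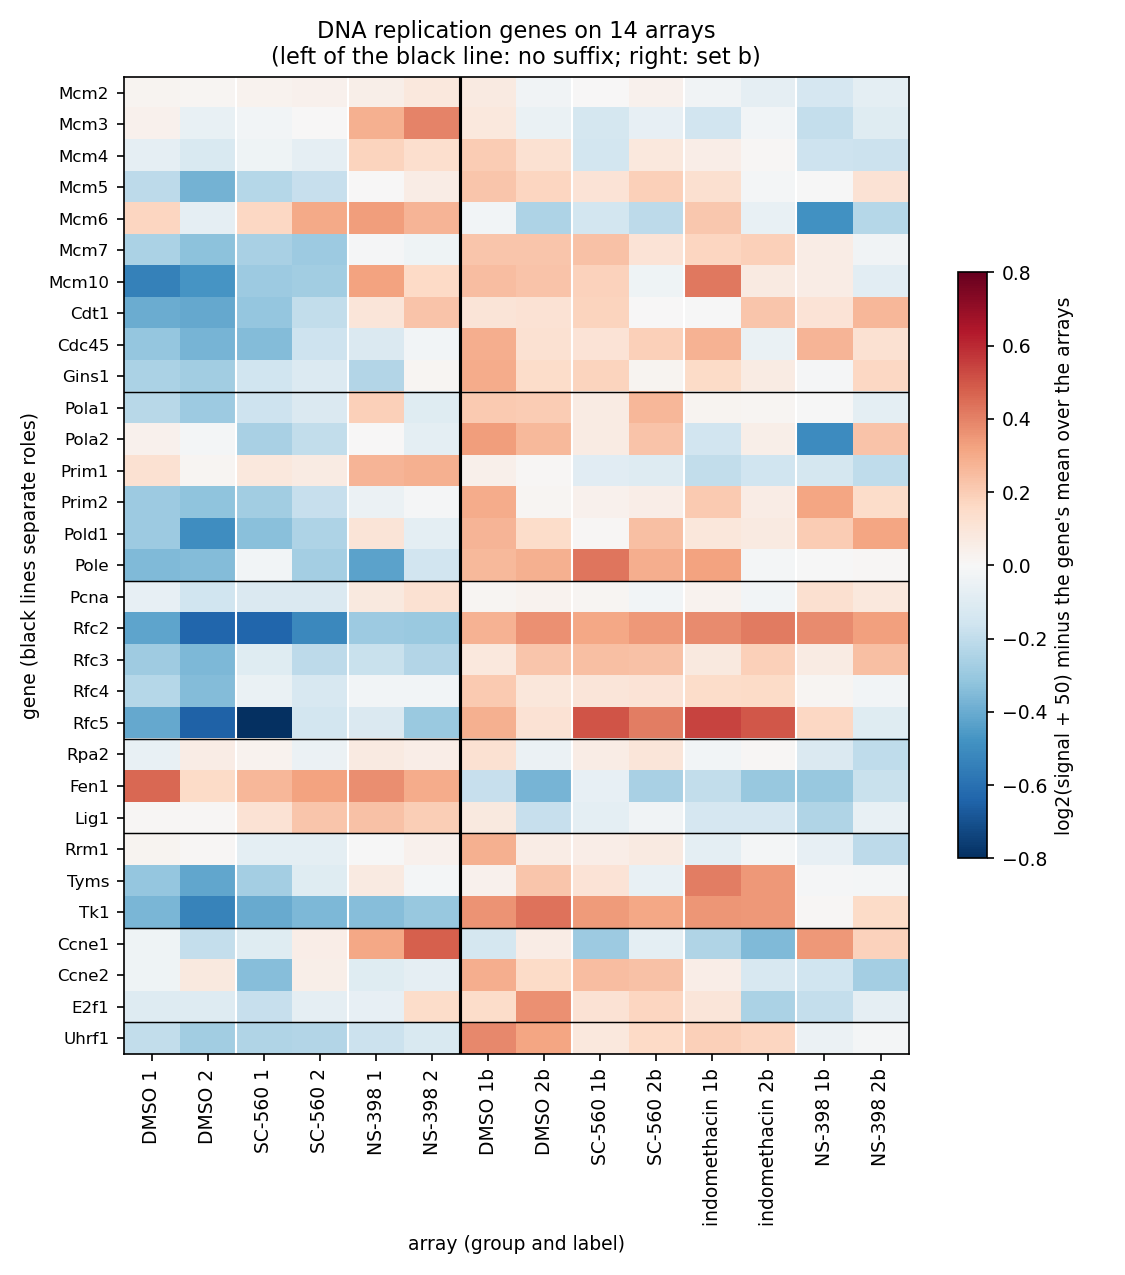
Each cell is the log2(signal + 50) of 1 gene (y axis, grouped by role) on 1 array (x axis) minus that gene's mean over the 14 arrays, with red above and blue below the mean. Most rows are blue on the DMSO and SC-560 arrays without the suffix (left of the black line) and red in set b, while the NS-398 columns of both sets are paler; Fen1 and, less evenly, Mcm6, Prim1 and Lig1 run the other way.

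Among the 10 genes of the helicase and its loading, 6 rose with NS-398 without the suffix, 2 fell in set b and 6 differed between the sets. Mcm10, which helps to turn the loaded helicase into a moving one, had the largest difference between sets of the 31 genes. Its signal without the suffix was 235 and 248 with DMSO, 289 and 290.4 with SC-560, and 467 and 412 with NS-398. In set b it was 441 and 434 with DMSO, 421 and 354 with SC-560, 504 and 384 with indomethacin, and 381 and 339 with NS-398. Both NS-398 arrays without the suffix lay above the other 4 arrays of that set, and both in set b lay below the DMSO arrays but overlapped with SC-560. The log2 change was 0.75 ± 0.13 (adjusted p = 0.0016) without the suffix and -0.25 ± 0.13 (adjusted p = 0.238) in set b, and the difference was -0.998 ± 0.19 (adjusted p = 0.00517). The second Mcm10 probe set, dimmer at 197 to 316, had a difference of -0.28 (adjusted p = 0.406, limma), so the probe sets agreed in sign and not in size.

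Mcm4, a subunit of the ring, gave 2335 and 2255 with DMSO, 2401 and 2337 with SC-560, and 2797 and 2712 with NS-398 without the suffix. In set b the Mcm4 signal was 2839 and 2683 with DMSO, 2215 and 2615 with SC-560, 2549.8 and 2479 with indomethacin, and 2193 and 2179.8 with NS-398. The NS-398 arrays were thus the highest of their set without the suffix and the lowest in set b. The change was 0.26 ± 0.074 (adjusted p = 0.032) in the former and -0.33 ± 0.074 (adjusted p = 0.00651) in the latter, and the difference was -0.59 ± 0.10 (adjusted p = 0.00358). Mcm7, another subunit, gave 2914 and 2766 with DMSO, 2907 and 2842 with SC-560, and 3461 and 3398 with NS-398 without the suffix. In set b Mcm7 gave 4075 and 4074 with DMSO, 4101 and 3763 with SC-560, 3934 and 3981 with indomethacin, and 3637 and 3415 with NS-398. The NS-398 arrays again lay above all others without the suffix and below all others in set b, although every array of set b but the NS-398 array 2b exceeded all arrays without the suffix. The change was 0.27 ± 0.061 (adjusted p = 0.00908) and -0.21 ± 0.061 (adjusted p = 0.0316), and the difference was -0.47 ± 0.086 (adjusted p = 0.0042).

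Mcm3 gave 1819 and 1697 with DMSO, 1743 and 1775 with SC-560, and 2173 and 2353 with NS-398 without the suffix. In set b the Mcm3 signal was 1886 and 1708 with DMSO, 1603 and 1692 with SC-560, 1588 and 1745 with indomethacin, and 1551 and 1658 with NS-398. Both NS-398 arrays without the suffix stood above the other 4, and in set b both lay below the DMSO arrays and overlapped with SC-560 and indomethacin. The change was 0.36 ± 0.079 (adjusted p = 0.00772) and -0.16 ± 0.079 (adjusted p = 0.208), with a difference of -0.51 ± 0.11 (adjusted p = 0.012). Cdt1, which brings the ring to the origin, gave 1308 and 1298 with DMSO, 1392 and 1515 with SC-560, and 1868 and 2050.2 with NS-398 without the suffix. In set b Cdt1 gave 1875 and 1892 with DMSO, 1976 and 1743 with SC-560, 1735 and 2034 with indomethacin, and 1878 and 2101 with NS-398. The NS-398 arrays exceeded all others without the suffix, while in set b all groups overlapped. The change was 0.57 ± 0.091 (adjusted p = 0.000687) and 0.075 ± 0.091 (adjusted p = 0.653), and the difference was -0.49 ± 0.13 (adjusted p = 0.0314). That difference was called in 8 of the 14 fits that each left out 1 array, and the change over both sets in 10 of 14. Mcm5 ran from 798 to 1235 over the arrays, with changes of 0.33 ± 0.088 (adjusted p = 0.0245) and -0.14 ± 0.088 (adjusted p = 0.322) and a difference of -0.47 ± 0.12 (adjusted p = 0.0354), called in 8 of 14.

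Mcm2, also a subunit of the ring and a common marker of proliferating cells, varied little. It gave 3276 and 3254 with DMSO, 3285 and 3304 with SC-560, and 3327 and 3417 with NS-398 without the suffix. In set b Mcm2 gave 3381 and 3164 with DMSO, 3230.2 and 3299 with SC-560, 3163 and 3068 with indomethacin, and 2925 and 3047 with NS-398. The NS-398 arrays were the highest of their set without the suffix by a narrow margin and the lowest in set b, and the changes of 0.046 ± 0.058 (adjusted p = 0.674) and -0.13 ± 0.058 (adjusted p = 0.158) did not pass the test. Mcm6 (1898 to 3386) had 0.26 ± 0.11 without the suffix and -0.22 ± 0.11 in set b, and its difference of -0.48 ± 0.15 (adjusted p = 0.0759) did not pass. Cdc45 (910.2 to 1468), which joins the helicase when an origin fires, had 0.27 ± 0.11 and -0.011 ± 0.11, and Gins1 (416 to 643), a subunit of the GINS complex, had 0.15 ± 0.11 and -0.14 ± 0.11, none of which was called.

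**Figure D4:**
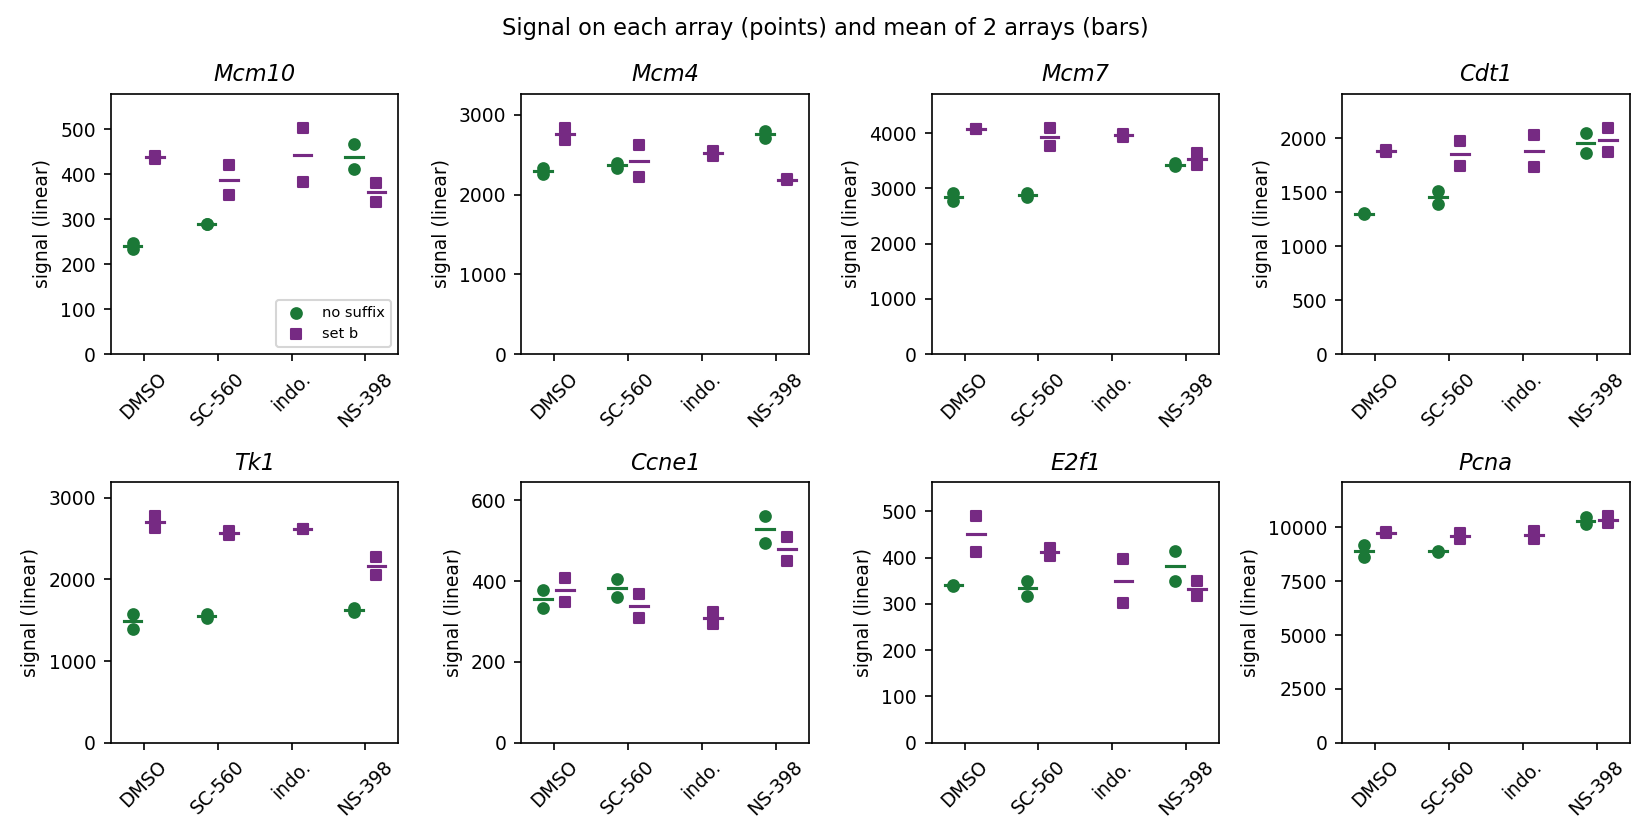
Signal on each array (y axis, linear, from 0) for 8 of the genes, by treatment (x axis) and label set (green circles without the suffix, purple squares set b), with a bar at the mean of the 2 arrays; indomethacin (indo.) was run in set b alone. For Mcm10, Mcm4 and Mcm7 the NS-398 points lie above the DMSO points without the suffix and below them in set b, while for Ccne1 and Pcna they lie above all other points in both sets.

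The promoter windows of these genes are shown because E2F factors are known to act on many of them. Whether the windows relate to the set differences was not tested. RefSeq windows of the assembly GRCr8, from 250 bases before to 50 bases after each gene's start, were in the table used for 28 of the 31 genes, all but Mcm4, Ccne2 and E2f1. They were searched on both strands for 4 forms of the E2F site (TTTCCCGC, TTTCGCGC, TTTGCCGC and TTTGGCGC), for CCAAT, and for TTTGAA, a cell cycle element known as CHR. An E2F form was present for 14 of 28 genes (50%), against 2.37% of 27457 genes in the table. CCAAT was present for 57.1% against 39.6%, and TTTGAA for 1 gene, Mcm2 (3.57%), against 19.4%. The E2F forms were searched in a list of genes known for such sites, so the share describes the list and not the response to a drug. Windows of 4 genes are given 5' to 3' in the direction of the gene, with E2F matches in capitals; a match on the other strand appears as its reverse complement. Mcm7 lies at chr12:22163129-22163428, minus strand, with matches that begin at positions -233 and -52 from the start site. Mcm3 lies at chr9:30733697-30733996, minus strand, with matches at -6 and 13, and Cdt1 at chr19:67528999-67529298, plus strand, with matches at 7 and 32. The window of Mcm10, the gene with the largest difference, lies at chr17:78175137-78175436, plus strand and held none of the 4 forms. Only exact matches were counted, so a sequence that differs by 1 base, such as tttggcgg in this window, was left out. A window without a match is therefore not shown to lack an E2F site.
Mcm7: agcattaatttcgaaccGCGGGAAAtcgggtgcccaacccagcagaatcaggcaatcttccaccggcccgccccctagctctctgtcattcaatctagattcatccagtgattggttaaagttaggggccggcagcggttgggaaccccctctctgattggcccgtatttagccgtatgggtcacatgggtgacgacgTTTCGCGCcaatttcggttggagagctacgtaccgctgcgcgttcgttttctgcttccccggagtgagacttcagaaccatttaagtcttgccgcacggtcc
Mcm3: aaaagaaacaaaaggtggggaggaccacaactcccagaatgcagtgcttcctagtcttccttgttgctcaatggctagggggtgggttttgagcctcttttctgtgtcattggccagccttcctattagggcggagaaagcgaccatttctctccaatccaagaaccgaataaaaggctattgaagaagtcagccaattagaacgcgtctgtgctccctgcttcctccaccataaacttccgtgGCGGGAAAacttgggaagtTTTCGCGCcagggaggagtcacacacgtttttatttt
Cdt1: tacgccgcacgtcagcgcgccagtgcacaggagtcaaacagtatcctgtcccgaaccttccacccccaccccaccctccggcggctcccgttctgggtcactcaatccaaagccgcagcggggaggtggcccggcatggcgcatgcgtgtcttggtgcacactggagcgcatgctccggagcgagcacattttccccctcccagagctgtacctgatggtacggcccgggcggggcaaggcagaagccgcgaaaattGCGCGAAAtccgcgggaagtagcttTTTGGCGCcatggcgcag
Mcm10: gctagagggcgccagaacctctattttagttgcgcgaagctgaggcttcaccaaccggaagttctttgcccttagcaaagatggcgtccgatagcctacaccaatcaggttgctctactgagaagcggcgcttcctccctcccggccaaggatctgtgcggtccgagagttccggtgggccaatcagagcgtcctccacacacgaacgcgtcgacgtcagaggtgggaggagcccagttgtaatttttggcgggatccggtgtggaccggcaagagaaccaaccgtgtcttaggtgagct
Of the 12 genes that differed between the sets, Mcm3, Mcm5, Mcm7, Cdt1, Pola1, Tyms and Uhrf1 held an E2F form in this window, Mcm10, Prim1, Rfc4 and Tk1 did not, and Mcm4 was not in the table. In the whole list 14 of 28 genes held such a form, so it was not particular to the genes that differed.

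Of the 6 primase and polymerase genes, Prim1 and Pold1 rose without the suffix, Prim1 fell in set b, and Prim1 and Pola1 differed between the sets. Prim1, the catalytic primase subunit that lays down RNA primers, gave 3480 and 3219.9 with DMSO, 3384 and 3345 with SC-560, and 3857 and 3898 with NS-398 without the suffix. In set b Prim1 gave 3279 and 3211 with DMSO, 2998 and 2961 with SC-560, 2782 and 2847 with indomethacin, and 2894 and 2764 with NS-398. The NS-398 arrays were the highest without the suffix, and in set b all 6 drug arrays lay below both DMSO arrays. The change was 0.21 ± 0.059 (adjusted p = 0.0305) and -0.19 ± 0.059 (adjusted p = 0.0359), and the difference was -0.40 ± 0.084 (adjusted p = 0.00907). Pola1, the catalytic subunit of polymerase alpha, gave 758 and 721 with DMSO, 792 and 821 with SC-560, and 1028 and 831 with NS-398 without the suffix. In set b Pola1 gave 1041 and 1035 with DMSO, 938 and 1085 with SC-560, 908 and 901 with indomethacin, and 890.4 and 842 with NS-398. The NS-398 arrays stood above the other arrays without the suffix and below all others in set b, although NS-398 1 and NS-398 2 themselves were far apart. Neither change passed the test alone (0.31 ± 0.10 (adjusted p = 0.0594) and -0.25 ± 0.10 (adjusted p = 0.115)), while the difference did, at -0.55 ± 0.14 (adjusted p = 0.0299), in 8 of 14 fits that left out an array.

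Pold1 (382 to 709), the catalytic subunit of polymerase delta, had 0.41 ± 0.11 (adjusted p = 0.0296) without the suffix, and 0.051 ± 0.11 with it, which was not called. Pole (315 to 609), its counterpart on the leading strand, had 0.058 ± 0.13 and -0.27 ± 0.13. Pola2 (238 to 463), the accessory subunit of polymerase alpha, had -0.048 ± 0.17 and -0.43 ± 0.17, with the widest error of the 31 genes, and Prim2 (387 to 629), the second primase subunit, had 0.28 ± 0.11 and 0.075 ± 0.11. None of these last values was called.

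All 5 genes of the clamp and its loader lay above 0 with NS-398 without the suffix, and Pcna and Rfc4 were called. Pcna gave 9186 and 8621 with DMSO, 8892 and 8883 with SC-560, and 10148 and 10489 with NS-398 without the suffix. In set b Pcna gave 9727 and 9795 with DMSO, 9732 and 9473 with SC-560, 9815 and 9485 with indomethacin, and 10531 and 10186 with NS-398. All 4 NS-398 arrays lay above all 10 other arrays. The change was 0.21 ± 0.048 (adjusted p = 0.00881) without the suffix, 0.085 ± 0.048 (adjusted p = 0.273) in set b and 0.15 ± 0.040 (adjusted p = 0.0215) over both, and the difference of -0.13 ± 0.068 (adjusted p = 0.304) did not pass. The change over both sets was called in 11 of 14 fits that left out an array, and it did not pass under quantile normalization, without the filter on low signals, without the intensity trend, or without a term for the label set, the last of which also ended the calls of Ccne1 and Cdt1 over both sets.

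Rfc4 (767 to 1149) had 0.27 ± 0.081 (adjusted p = 0.0434) and -0.15 ± 0.081 (adjusted p = 0.249), and its difference of -0.42 ± 0.11 (adjusted p = 0.042) was called in 3 of 14 such fits. Rfc2 (734 to 1574) had 0.23 ± 0.085 and 0.031 ± 0.085, Rfc3 (624 to 972) had 0.12 ± 0.094 and -0.0023 ± 0.094, and Rfc5 (1034 to 2694) had 0.32 ± 0.15 and -0.16 ± 0.15, none of them called. The second probe set of Rfc5 was called in set b (-0.31, adjusted p = 0.0217, limma) and for the difference (-0.50, adjusted p = 0.0244, limma), where the one used was not.

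The 3 genes of single strand binding and strand joining did not pass in any NS-398 comparison with DMSO. Rpa2 (819.7 to 1042), a subunit of the complex that coats single strands, had 0.064 ± 0.087 without the suffix and -0.20 ± 0.087 in set b. Fen1 (968 to 1767) had 0.025 ± 0.11 and 0.039 ± 0.11, and Lig1 (1064 to 1496), the ligase that seals Okazaki fragments, had 0.20 ± 0.091 and -0.098 ± 0.091. On the DMSO arrays the 2 Lig1 probe sets differed in sign between the label sets. The one used had -0.062 in set b minus no suffix (adjusted p = 0.622, limma). The dimmer one (407 to 698) had 0.36 (adjusted p = 0.0628, limma), and neither was called.

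Among the 3 genes of nucleotide supply, Tyms rose without the suffix, Rrm1 and Tk1 fell in set b, and Tyms and Tk1 differed between the sets. Tk1, which salvages thymidine, gave 1576 and 1396 with DMSO, 1532 and 1578 with SC-560, and 1597 and 1646 with NS-398 without the suffix. In set b Tk1 gave 2627 and 2776 with DMSO, 2593 and 2544 with SC-560, 2618 and 2614 with indomethacin, and 2053 and 2275 with NS-398. Every array of set b lay above every array without the suffix, and within set b both NS-398 arrays lay below the other 6. The change was 0.12 ± 0.074 (adjusted p = 0.311) without the suffix and -0.31 ± 0.074 (adjusted p = 0.00901) in set b, and the difference was -0.44 ± 0.10 (adjusted p = 0.0199). A second Tk1 probe set at 603.5 to 1505 gave -0.45 in set b (adjusted p = 0.00752, limma) and a difference of -0.45 that did not pass (adjusted p = 0.0782). Rrm1 (2974 to 4209), the large subunit of ribonucleotide reductase, had -0.00077 ± 0.072 (adjusted p = 0.997) and -0.31 ± 0.072 (adjusted p = 0.0086). Tyms (445 to 829), which makes thymidylate, had 0.39 ± 0.11 (adjusted p = 0.0233) and -0.14 ± 0.11 (adjusted p = 0.433), and its difference of -0.53 ± 0.15 (adjusted p = 0.0445) was called in 4 of 14 fits that left out an array. Each of those 4 fits left out an SC-560 array, which is outside the groups compared.

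Uhrf1, which recruits the maintenance methyltransferase to newly copied DNA, gave 1108 and 1041 with DMSO, 1073 and 1075 with SC-560, and 1129 and 1169 with NS-398 without the suffix. In set b Uhrf1 gave 1681 and 1599.8 with DMSO, 1353 and 1434 with SC-560, 1463 and 1441 with indomethacin, and 1235 and 1264 with NS-398. All arrays of set b lay above those without the suffix, and the NS-398 arrays were the lowest of set b and the highest of the other set. The change was 0.093 ± 0.074 (adjusted p = 0.466) without the suffix and -0.38 ± 0.074 (adjusted p = 0.00244) in set b, and the difference was -0.47 ± 0.10 (adjusted p = 0.013).

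The 3 G1/S genes went different ways. Ccne1 gave 379 and 335 with DMSO, 361 and 406 with SC-560, and 495 and 561 with NS-398 without the suffix. In set b Ccne1 gave 349 and 408 with DMSO, 309.9 and 367 with SC-560, 323 and 294 with indomethacin, and 509 and 449 with NS-398. All 4 NS-398 arrays lay above the other 10, at a mean of 504 ± 46.2 (SD, n = 4) against 368 ± 32.5 (SD, n = 4) with DMSO. The change was 0.41 ± 0.093 (adjusted p = 0.00812) over both sets, 0.51 ± 0.13 (adjusted p = 0.0165) without the suffix and 0.30 ± 0.13 (adjusted p = 0.127) in set b, and the difference of -0.20 ± 0.18 (adjusted p = 0.57) did not pass. The change over both sets was called in all 14 fits that left out an array. Ccne2 (1274 to 1999), the second cyclin E gene, lay below 0 in both sets, with -0.11 ± 0.11 (adjusted p = 0.561) and -0.44 ± 0.11 (adjusted p = 0.0102).

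E2f1, the transcription factor that acts on many of the other genes, gave 340.4 and 339.6 with DMSO, 318 and 349 with SC-560, and 349.6 and 414 with NS-398 without the suffix. In set b E2f1 gave 412 and 489.9 with DMSO, 404 and 421 with SC-560, 397 and 301 with indomethacin, and 316 and 349 with NS-398. The NS-398 arrays were the highest without the suffix, by a narrow margin, and in set b both lay below DMSO and SC-560 but overlapped with indomethacin. The changes of 0.14 ± 0.14 (adjusted p = 0.553) and -0.39 ± 0.14 (adjusted p = 0.0673) and the difference of -0.53 ± 0.19 (adjusted p = 0.117) did not pass.

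Indomethacin at the dose of NS-398 changed 1 of these genes, as read by the probe set used for each. The comparison used the 2 indomethacin and the 2 DMSO arrays of set b, and so shares its DMSO arrays with the NS-398 comparison there. Prim1 was the gene called, with -0.20 ± 0.059 (adjusted p = 0.0497), among 7.1% of all probe sets called and 3.67% called lower; the median over the 31 genes was -0.083, and 24 of 31 lay below 0. Without DMSO 2b the median was -0.16, and in the fit of group and set on all 14 arrays it was -0.0061, with 16 of 31 below 0. The Prim1 call held in 4 of 14 fits that left out an array, each of them without a DMSO or SC-560 array that lacks the suffix. It was lost in every fit that left out an array of the groups compared. The call was also lost with a pseudocount of 16, without the filter or the trend, with median centring, with the replicate block and in the fit of group and set. The second Tk1 probe set was called lower with indomethacin in set b (-0.37, adjusted p = 0.0396, limma). The Tk1 probe set used was not (-0.045, adjusted p = 0.788, limma). Set directly against indomethacin, NS-398 gave 4 called genes in set b, where 9.99% of all probe sets were called. Ccne1 was higher (0.56 ± 0.13 (adjusted p = 0.0109)), while Mcm6 (-0.43 ± 0.11 (adjusted p = 0.0177)), Tyms (-0.39 ± 0.11 (adjusted p = 0.028)) and Tk1 (-0.27 ± 0.074 (adjusted p = 0.0301)) were lower. The Tk1 call against indomethacin was lost when all probe sets of a gene were averaged. Without NS-398 1b none of the 31 passed, and without either indomethacin array 1 did.

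SC-560, at a dose that differs from the others, changed none of the 31 genes over both sets in the limma fit, and 0% of all probe sets were called. No member had an unadjusted p under 0.05 either, against 1263 of 17515 probe sets, the smallest adjusted p was 0.749, and the changes ran from -0.19 (Pola2) to 0.15 (Rfc5) with a median of 0.0050 and a median SE of 0.087. A p that misses the threshold does not show that SC-560 and DMSO gave the same levels.

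Other genes of the pathway, from lists that hold none of the 31, were counted in the same fits. Shares of a list are of genes called in either direction, against 13.5% of all probe sets over both sets, 11.9% without the suffix, 14.7% in set b and 6.09% for the difference. Of 15 measured genes of the pre-replication complex and origin firing, 1 rose without the suffix (6.67%), 3 fell in set b (20%) and 2 differed between the sets (13.3%), with medians of 0.14, -0.21 and -0.39. Gins4, a GINS subunit, had -0.62 ± 0.096 (adjusted p = 0.00041) in set b and a difference of -0.77 ± 0.14 (adjusted p = 0.00335), and Gmnn, the inhibitor of Cdt1, had 0.33 ± 0.080 (adjusted p = 0.0139) without the suffix and a difference of -0.49 ± 0.11 (adjusted p = 0.0171). Of 18 further polymerase, clamp and fork subunits, 2 rose without the suffix (11.1%), 2 rose and 2 fell in set b (22.2%), and 1 differed (5.56%), Pold4, a small subunit of polymerase delta, upward at 0.46 ± 0.12 (adjusted p = 0.0294), with medians of 0.071, -0.072 and -0.22. Of 14 genes of nucleotide supply and chromatin assembly, 2 rose without the suffix (14.3%), 2 fell in set b (14.3%) and 3 differed downward (21.4%), with medians of 0.18, -0.11 and -0.28. Dut, which removes dUTP, had 0.32 ± 0.055 (adjusted p = 0.00129) without the suffix and a difference of -0.40 ± 0.078 (adjusted p = 0.00638), and Umps, of pyrimidine synthesis, a difference of -0.48 ± 0.10 (adjusted p = 0.00976).

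Of 21 genes of E2F and G1/S control, 2 rose and 1 fell over both sets, a share of 14.3%, near that of all probe sets. Without the suffix 3 rose and 1 fell, in set b 3 rose and 2 fell, and 1 differed in each direction, with medians of 0.054, 0.021 and 0.016 and with 11 of 21 differences above 0. Ccnd1, the cyclin D1 gene that starts the release of E2F, rose by 0.76 ± 0.074 (adjusted p = 5.65e-06) with NS-398 over both sets, and by 0.71 ± 0.086 (adjusted p = 0.000114) with indomethacin in set b. Cdkn1b, the kinase inhibitor p27, rose by 0.20 ± 0.042 (adjusted p = 0.00445), and Ccna2, cyclin A2, had -0.43 ± 0.12 (adjusted p = 0.0298). Tfdp1, the partner of E2F1, had a difference between sets of -0.41 ± 0.10 (adjusted p = 0.0255), and Ccnd2 of 0.55 ± 0.12 (adjusted p = 0.0129). Of 12 mitotic genes, 7 fell in set b (58.3%) and 1 without the suffix (8.33%), with medians of -0.26 and 0.056, and 2 fell over both sets (16.7%), Mki67 (-0.23 ± 0.053 (adjusted p = 0.00818)) and Plk1 (-0.31 ± 0.094 (adjusted p = 0.0355)). Bub1, a spindle checkpoint kinase, was the 1 gene of the list called for the difference between the sets (8.33%), at -0.51 ± 0.099 (adjusted p = 0.00605). On the DMSO arrays 11 of the 12 mitotic genes were higher in set b, with a median of 0.55, where 21.8% of all probe sets were called higher.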

How the data were processed

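RNA was labelled after 2 rounds of in vitro transcription and measured on 14 one-colour rat arrays. The deposited intensity values are linear signals of 31099 probe sets on each array, which the authors scaled to a target signal of 500, per the labels; the summarising software is not given in the sources used here. Symbols came from the platform annotation, updated through RefSeq (20826 probe sets with 1 symbol, 436 with several, left unnamed). The 57 control probe sets were left out, and the 17515 probe sets with a signal of 100 or more on at least 2 arrays were tested.

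Values were fitted as log2(signal + 50) with limma 3.58.1 under R 4.3.3, using empirical Bayes with an intensity trend. Effects over both label sets came from a model of group and set on all 14 arrays, and those within a set from a model with a mean for each group and set, also on all 14. Adjusted p-values are Benjamini-Hochberg values over all probe sets tested, and calls are values under 0.05. Log2 changes carry their standard error after ±. Fits were checked on simulated data, and no 2 arrays were copies of each other. A log2 change of 0.5 for NS-398 was put into probe sets drawn from all 17515. It was called in 64.5% of cases over both sets, 23.5% without the suffix, 33% in set b and 10.5% for the set difference. For a change of 1 the shares were 98%, 85%, 85% and 61.5%. These shares describe probe sets in general and were not measured for the replication genes alone. A gene that did not pass may still have changed. The number of arrays limits the precision. The pairing by array label was checked, and the alternatives tried are under the closing section.

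The 31 genes and the other lists were chosen with earlier results of these data known. Signals on every array are given for Pcna, Mcm2, E2f1 and Ccne1, the 8 genes with the smallest adjusted p for the set difference, and genes called over both sets or with indomethacin. From each other list, up to 2 called genes in each direction are named.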

Additional observations from a re-analysis of the deposited data

Results flagged for a closer look

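The NS-398 effect differed between the label sets for 12 of the 31 genes by the test of the difference itself (limma, adjusted p under 0.05). The effect in set b minus that without the suffix was -0.998 for Mcm10, -0.59 for Mcm4, -0.55 for Pola1, -0.53 for Tyms, -0.51 for Mcm3, -0.49 for Cdt1, -0.47 for Mcm5, -0.47 for Mcm7, -0.47 for Uhrf1, -0.44 for Tk1, -0.42 for Rfc4 and -0.40 for Prim1, all on the log2 scale. With the SC-560 arrays as the reference, 1 of these, Mcm7, was called.

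In 2 of 93 groups of 4 arrays, 1 array stood apart, with a gap to the nearest of the others, as a share of the range of the group, above Dixon's 95% critical value. For Tyms on the NS-398 arrays the value was 0.901, with array 1 the highest at 646 and the other 3 between 604 and 608. For Rfc4 on the NS-398 arrays it was 0.885, with array 1b at 1000.2 and the other 3 between 970.1 and 974. In a group drawn from 1 source chance puts about 1 in 20 past this value; these groups join 2 arrays from each label set, so that rate does not apply to them, and a spread between the sets makes a lone array harder to detect.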

How the results depend on the processing

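Of 185 counts of called genes under an alternative setting, 146 stayed within 1.5 times the main count, and of 1370 repeats of called genes 1150 kept the call, 220 lost it and 0 changed sign. These totals include the SC-560 counts, which started from 0, and fits that left out an array outside the groups compared. Such repeats could hardly move, so the totals overstate how stable the other calls were. Without the intensity trend the counts were 1 for NS-398 over both sets, 6 without the suffix, 4 in set b, 4 for the set difference, 0 for indomethacin and 2 for NS-398 against indomethacin. Without the filter on low signals they were 7 for the difference and 0 for indomethacin, and without a term for the label set 0 for NS-398. Indomethacin also had 0 with a pseudocount of 16, median centring, the replicate block, and the model of group and set. With SC-560 as the reference, set b had 3 and the difference 1; the cause was not tested.

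Leaving out each array in turn gave counts of 1 to 4 for NS-398 over both sets, 2 to 13 without the suffix, 2 to 7 in set b, 4 to 12 for the difference, 0 to 0 for SC-560, 0 to 1 for indomethacin, 0 to 5 for NS-398 against indomethacin and 18 to 21 for the DMSO set difference; where 1 array was left in a group and set, it was assumed to vary like the others. Without DMSO 2 the median change over both sets changed sign for NS-398, to -0.016, and for SC-560, to -0.045; the highest values were 0.087 (without NS-398 1b) and 0.058 (without DMSO 1b). Under quantile normalization and median centring the medians over the 31 genes kept their sign in the 8 comparisons repeated, and the median over all probe sets stayed within 0.1 of 0.

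Arrays of different groups with the same number and label set did not deviate together once group and set means were removed (r from -0.078 to 0.063 over 18 pairs). Both numbers of a set gave the same r for each pair of groups, so the 18 values were not all separate. Whether an array without the suffix was linked to one of set b was not examined. The fit with the replicate block gave 3 genes for NS-398, 11 without the suffix, 6 in set b, 9 for the difference and 19 for the DMSO set difference.

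Each change within a set rested on 2 arrays against 2, with a median standard error of 0.094 on the log2 scale over the 31 genes.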

Other observations

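Across the 14 arrays, after the mean of each label set was removed, the replication genes ran together to different degrees. Pearson's r of a gene with the mean of the other 30 was highest for Mcm5 (0.92), Mcm7 (0.86) and Mcm3 (0.85), and lowest for Rfc3 (0.15), Ccne1 (0.24), Pole (0.24) and Fen1 (0.25). All arrays share scaling and labelling steps, and these values are a description with no test. The log2 values of 9746 named genes outside the list were set against the mean of the 31 in the same way. Closest were Ppa1, a pyrophosphatase (r = 0.93), the adhesion molecule Cadm1 (0.93) and Rangap1, which acts in nuclear transport (0.92). Next came Cobl, an actin nucleator (0.90), and Arhgap11a (0.90). Each value is over 14 arrays.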
